A study of Mus musculus with 6 samples.

Results

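The 42 interferon-induced genes and immunity-related GTPases were measured in mouse liver RNA, among 24421 gene symbols in the count table. They were taken by symbol from a list of known interferon targets, drawn up with earlier results of these data known, and all 42 had enough counts to be tested. By their best known inducer they were placed in 3 sets. The type I interferon genes numbered 27 and the GTPases induced by interferon gamma numbered 9. The remaining 6 were genes of antigen processing, a pair of chemokines and the transcription factor gene Irf1, also strongly induced by interferon gamma.

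The livers came from male C57BL/6 mice aged 4 months, 3 samples labelled Sesn3 KO (KO) and 3 labelled wild type (WT). Sesn3 encodes sestrin 3, a stress-inducible regulator of mTORC1 and AMPK signalling. Every mouse, WT included, had eaten for 4 weeks a diet with 40% of its energy from fat, 40% from carbohydrate and 20% from protein. The diet also held cholesterol (1.25%) and, at 0.5%, the bile salt sodium cholate. The sources used here do not give how the Sesn3 allele was made or whether the WT mice were littermates. Libraries summed to between 18882220 and 24098512 counts. Levels are CPM, counts over a common library total, adjusted by TMM factors for differences in library composition. Sesn3 was at 0.715 ± 0.0398 CPM in KO and 10.3 ± 1.31 CPM in WT (SD, n = 3 each; edgeR adjusted p = 0.00183), with 16 to 18 counts in every KO library. The hepatocyte markers Alb, Ttr and Apoa1 were abundant in every library, with 11 listed hepatocyte genes summing to between 116371 and 144173 CPM in 5 libraries and to 170934 CPM in WT replicate 2. Their median log2 fold change, KO minus WT, was -0.47, and -0.26 with library sizes alone, without TMM factors. None was called by edgeR or limma-voom. At an unadjusted edgeR p below 0.05 there were 4, against 25.8% of all tested genes. DESeq2 called 4 lower, against 7.24% of the genes it tested.

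Interferons are secreted proteins that signal through JAK kinases and STAT transcription factors. Type I interferons and interferon gamma bind different receptors. Type I interferons act through a complex with STAT2 and IRF9 that binds the interferon-stimulated response element (ISRE), whereas interferon gamma, made mainly by T and NK cells, acts through the gamma-activated site (GAS) and raises IRF1, which also binds ISRE-like sequences. The type I genes encode sensors of viral RNA, 2'-5' oligoadenylate synthetases and inhibitors of viral translation. The immunity-related GTPases (Irg genes) and guanylate-binding proteins (Gbp genes) act on the vacuoles of intracellular bacteria and parasites.

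Promoter windows are shown for up to 2 genes of each set, those with the smallest p in the comparison of genotypes that held a searched motif, to let the ISRE-type and GAS-type sequences be seen. The windows come from RefSeq (GRCm38.p6), run 5′ to 3′ on the strand of the gene from 250 bases before to 50 bases after the transcript start, and carry the searched motif in capitals. The capitals mark the ISRE core (GAAA, any 2 bases, GAAA) for all but Irf1, where they mark the GAS core, TTCNNNGAA.
Irgm1, chr11:48871371-48871670, minus strand: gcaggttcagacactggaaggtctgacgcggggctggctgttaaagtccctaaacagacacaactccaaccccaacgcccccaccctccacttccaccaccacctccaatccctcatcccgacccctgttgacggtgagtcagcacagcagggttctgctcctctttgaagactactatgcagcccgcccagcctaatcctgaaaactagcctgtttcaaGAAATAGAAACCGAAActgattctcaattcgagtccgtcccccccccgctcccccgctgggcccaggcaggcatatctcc
Tgtp1, chr11:48992197-48992496, minus strand: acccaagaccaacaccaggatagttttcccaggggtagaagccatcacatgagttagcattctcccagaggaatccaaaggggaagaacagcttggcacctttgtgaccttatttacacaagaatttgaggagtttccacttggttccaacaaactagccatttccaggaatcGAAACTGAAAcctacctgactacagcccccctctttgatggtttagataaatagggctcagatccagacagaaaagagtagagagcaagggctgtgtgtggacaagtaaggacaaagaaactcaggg
Bst2, chr8:71537423-71537722, minus strand: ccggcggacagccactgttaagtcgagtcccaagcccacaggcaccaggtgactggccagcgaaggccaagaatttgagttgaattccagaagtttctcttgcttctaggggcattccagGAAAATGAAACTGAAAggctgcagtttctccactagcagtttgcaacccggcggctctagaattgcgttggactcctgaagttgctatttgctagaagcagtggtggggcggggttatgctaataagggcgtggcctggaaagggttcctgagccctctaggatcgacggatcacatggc
Oas3, chr5:120777610-120777909, minus strand: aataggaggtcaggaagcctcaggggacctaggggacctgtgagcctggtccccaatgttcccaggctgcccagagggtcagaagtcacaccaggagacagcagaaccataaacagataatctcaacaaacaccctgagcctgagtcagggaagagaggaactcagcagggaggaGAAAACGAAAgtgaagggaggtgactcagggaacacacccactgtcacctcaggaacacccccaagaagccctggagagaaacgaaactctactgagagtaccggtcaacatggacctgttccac
Cxcl10, chr5:92348840-92349139, minus strand: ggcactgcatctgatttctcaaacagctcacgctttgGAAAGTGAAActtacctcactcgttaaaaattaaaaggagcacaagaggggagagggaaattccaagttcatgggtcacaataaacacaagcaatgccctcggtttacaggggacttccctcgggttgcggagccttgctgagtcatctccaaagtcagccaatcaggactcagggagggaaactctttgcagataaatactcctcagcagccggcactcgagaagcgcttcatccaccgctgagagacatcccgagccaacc
Irf1, chr11:53769764-53770063, plus strand: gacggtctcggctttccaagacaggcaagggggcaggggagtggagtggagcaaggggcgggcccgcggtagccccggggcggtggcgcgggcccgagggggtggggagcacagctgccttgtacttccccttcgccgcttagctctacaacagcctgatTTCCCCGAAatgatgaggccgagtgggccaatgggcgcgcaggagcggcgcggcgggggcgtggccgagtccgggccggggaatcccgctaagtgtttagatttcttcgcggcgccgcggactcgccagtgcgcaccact

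Of the 42 genes, 32 matched a RefSeq window by symbol. Oas2, Mx1, Mx2, Usp18, Ifi27l2a, Dhx58, Rtp4, Gbp6, Iigp1 and Gm4841 did not. Both motifs were searched on both strands, and the letters of one can overlap those of the other. The ISRE core was found in 6 of 6 GTPase genes, 12 of 20 type I genes and 1 of 6 genes of the third set, against 3.99% of all 27025 genes with a window. The GAS core was found in 3 of 6 GTPase genes, 3 of 20 type I genes and 2 of 6 of the third set, against 9.55% of all genes. Bst2, which encodes tetherin, a membrane protein that holds budding virus, and Irgm1 each held 2 overlapping matches to the motif in capitals, and the other windows shown held 1. The windows of Bst2 and Tgtp1 also held 1 GAS core each, not marked as such. That of Tgtp1 lies outside the capitals, and that of Bst2 ends inside them. Neither Ifi44 nor Ifi44l held either motif in its window. A match describes letters in the window and was not tested as a binding site.

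The sets differed in how they varied. The GTPases were high in WT replicates 1 and 3 and low in WT replicate 2 and in all KO libraries. The type I genes varied less than the GTPases in the median, and WT replicate 2 was the lowest library for 20 of the 27. Relative to the KO mean, the median GTPase was at 6.30-fold in WT replicate 1, 0.853-fold in WT replicate 2 and 3.03-fold in WT replicate 3. For the type I genes these medians were 1.20-, 0.605- and 1.08-fold, and over all 12945 tested genes 0.985-, 0.992- and 0.992-fold. For the antigen processing and chemokine genes they were 3.35-, 0.863- and 2.32-fold, between the other sets in WT replicates 1 and 3. All 3 KO libraries stayed between 0.796- and 1.12-fold in each set's median.

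**Figure D1:**
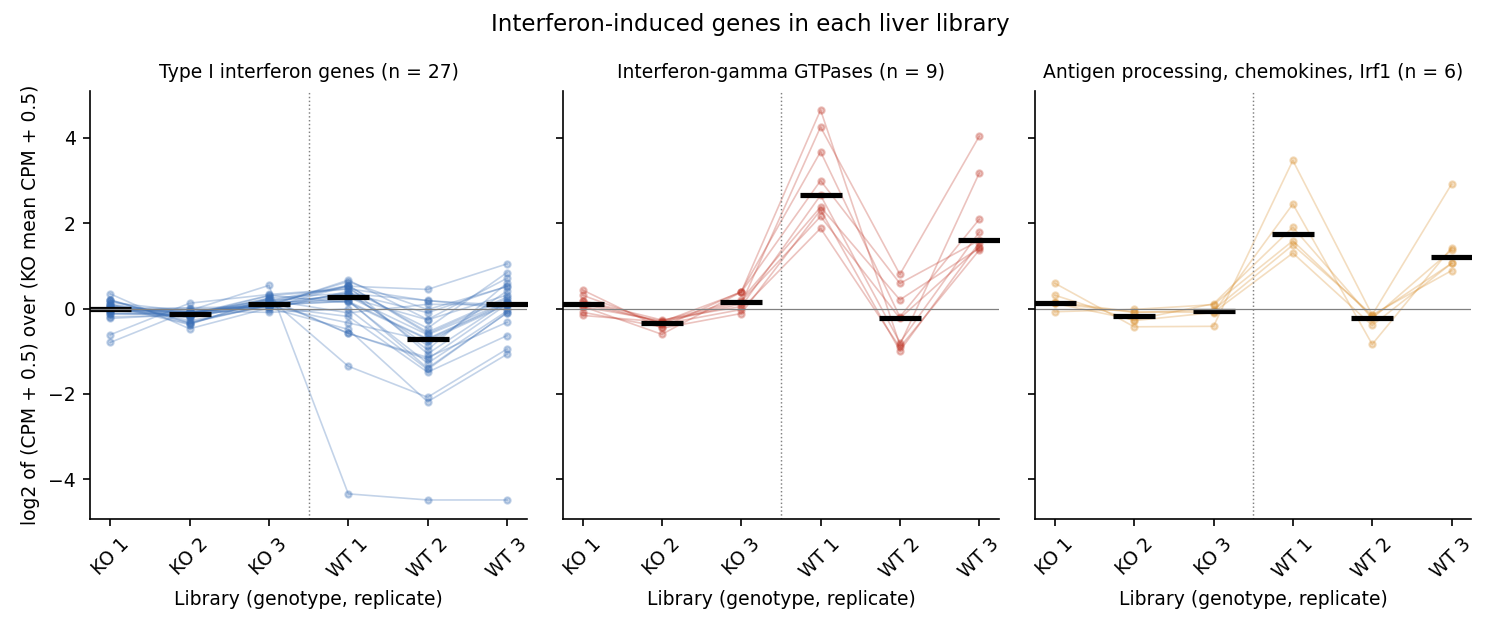
Level of each gene in each library as log2 of its CPM plus 0.5 over the KO mean CPM plus 0.5, with thin lines joining the values of 1 gene and black bars at the median of each set. The GTPase medians stand at 2.65 and 1.60 in WT replicates 1 and 3 and at -0.23 in WT replicate 2, and the single line far below the others among the type I genes is Ifi44l.

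In KO against WT, 2 of the 42 genes were higher and 1 was lower at an adjusted p below 0.05 (edgeR's quasi-likelihood test over all 12945 tested genes). Of all tested genes 6.94% were called, 3.36% higher and 3.58% lower. The higher genes were Ifi44 and Ifi44l of the type I set, and the lower one was the GTPase gene Gm4841. All 9 GTPases and all 6 genes of the third set had negative log2 fold changes, with medians of -1.80 and -1.14. The type I genes were split into 13 positive and 14 negative, with a median of -0.02, and all tested genes had a median of 0.00267. With library size only as the scale, which moved the median of all genes to 0.21, the type I split was 21 to 6, and the other sets kept every sign. KO and WT libraries did not overlap for 8 of the 42 genes (19.05%), against 33.5% of all tested genes. They were Oas1g, Oas2, Ifi44 and Ifi44l with KO above WT, and Bst2, Irgm1, Iigp1 and Gm4841 with KO below WT. DESeq2 called 2 of the 42 higher and 8 lower, against 6.43% and 7.24% of the genes it tested. By limma-voom 2 were higher and none lower, against 3.28% and 3.42% of all genes, and with library size only 2 were higher and 1 lower, against 5.46% and 1.99%.

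**Figure D2:**
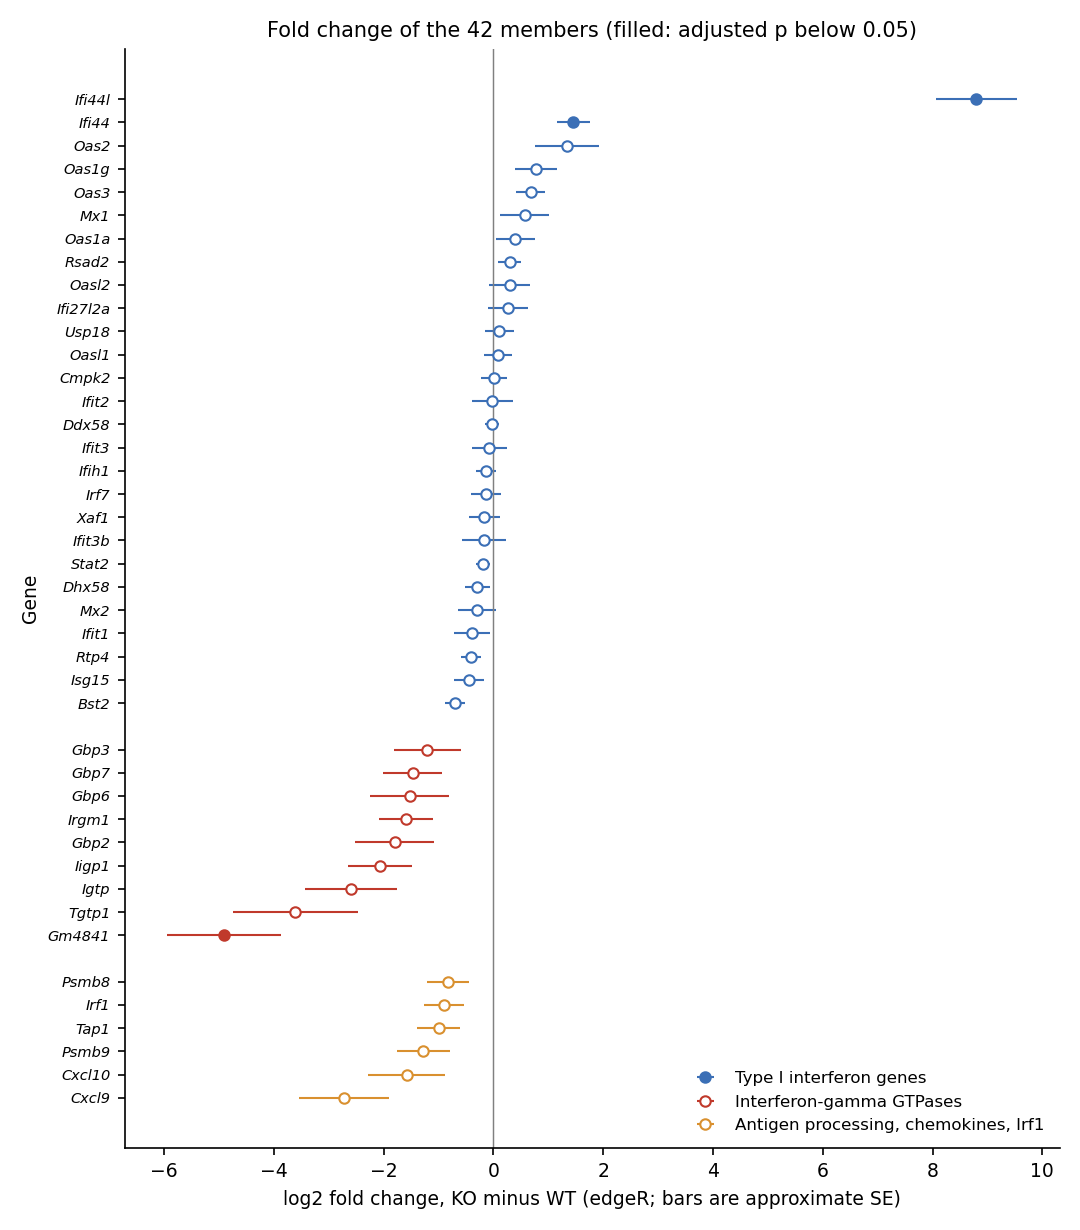
Log2 fold change of each of the 42 genes, KO minus WT, with approximate standard errors, ordered within each set. Filled points passed the adjusted threshold (Ifi44l, Ifi44 and Gm4841), and every GTPase and every gene of the third set lies left of 0.

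Among the GTPases, Tgtp1 and Igtp had the widest ranges within WT. Iigp1, an effector Irg protein that loads onto parasite vacuoles, had 141.8, 127.6 and 206.9 CPM in KO replicates 1 to 3 and 1271, 239 and 481 CPM in WT replicates 1 to 3. Every WT library lay above every KO library, though WT replicate 2 was close to KO replicate 3. The log2 fold change was -2.06 (SE 0.58) and did not pass (edgeR adjusted p = 0.0789). Igtp, a regulatory Irg protein also called Irgm3, was at 32.5, 25.5 and 45.8 CPM in KO and at 447, 30.1 and 149 CPM in WT. WT replicate 2 lay inside the KO range and the others far above it (log2 -2.59, SE 0.84, edgeR adjusted p = 0.110).

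Tgtp1, named T cell-specific GTPase after its first finding in activated T cells, was at 9.21, 5.67 and 11.8 CPM in KO and at 235, 4.71 and 84.1 CPM in WT. Its lowest library was WT replicate 2 and its 2 highest were the other WT libraries, a range of 45.3-fold within WT and 1.99-fold within KO, on the scale of CPM plus 0.5. The log2 fold change of -3.61 (SE 1.14) did not pass (edgeR adjusted p = 0.103). Gm4841, an Irg family gene of the Iigp1 cluster, was at 0.423, 0.154 and 0.388 CPM in KO and 15.2, 0.930 and 12.98 CPM in WT. It held 23 counts over the KO libraries and 549 over the WT libraries, a ratio of 31.6 (95% counting interval 20.8 to 50.2). Its fall in KO (log2 -4.91, SE 1.03, edgeR adjusted p = 0.0391) was no longer called when KO replicate 1, 2 or 3, WT replicate 1 or WT replicate 3 was left out (adjusted p between 0.0573 and 0.150), with limma-voom (0.202) and with no filter on low counts (0.0744). With WT replicate 2 left out the adjusted p was 0.000966.

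Irgm1, a regulatory Irg protein that restrains the effector proteins and acts in autophagy, was at 59.8, 47.5 and 66.9 CPM in KO and 304, 67.0 and 156 CPM in WT (log2 -1.60, SE 0.49, edgeR adjusted p = 0.0968). Its WT replicate 2 and KO replicate 3 were nearly equal. The Gbp genes, which encode larger GTPases that coat and open pathogen vacuoles, were likewise highest in WT replicate 1, then WT replicate 3. Gbp2 was at 34.5, 25.04 and 31.3 CPM in KO and at 193, 17.2 and 106 CPM in WT (log2 -1.80, SE 0.72, edgeR adjusted p = 0.172). Gbp3, Gbp6 and Gbp7 had log2 fold changes of -1.21, -1.52 and -1.47 and adjusted p values of 0.264, 0.234 and 0.144. WT replicate 1 was the highest of the 6 libraries for 9 of 9 GTPases, and WT replicate 2 the lowest WT library for 9 of 9. WT replicate 2 lay below the KO range for 4 GTPases, inside it for 2 and above it for 3.

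The number of GTPases called depended on WT replicate 2. In the fit without it, 9 of 9 GTPases were lower in KO, with log2 fold changes from -5.45 to -1.68 and edgeR adjusted p values of 0.000966 to 0.0181. In that fit 3.07% of all tested genes were higher and 3.6% lower. Leaving out any other library left no GTPase past the threshold. Of all genes 3.84% were higher and 3.49% lower without WT replicate 1, and 1% were higher and 1.21% lower without WT replicate 3. Without KO replicate 1, 2 or 3, the lower genes made up 1.15%, 0.405% and 0.997% of all tested genes. With WT replicate 1 left out the median log2 fold change of the set was -1.02. DESeq2 on all 6 libraries called 5 of the 9 lower (Gbp7, Irgm1, Iigp1, Tgtp1 and Gm4841), against 7.24% of the genes it tested, and limma-voom called none. At an unadjusted p below 0.05, 7 of the 9 passed in the edgeR fit, against 25.8% of all tested genes.

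**Figure D3:**
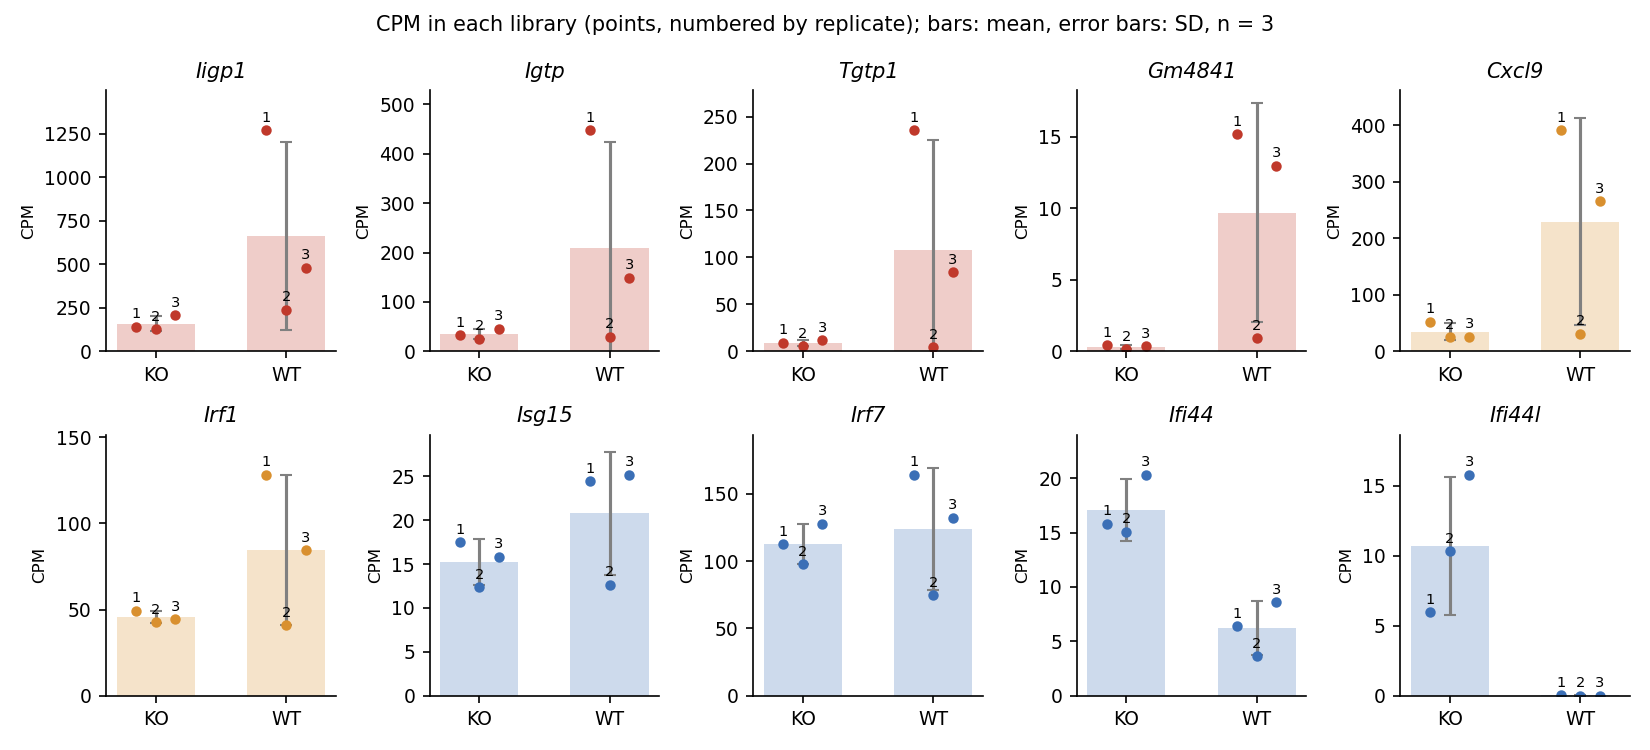
CPM of 10 genes in each library, with points numbered by replicate, bars at the mean and error bars for the SD (n = 3 each, lower ends below 0 not drawn). In the GTPases, Cxcl9 and Irf1, WT replicates 1 and 3 stand above all KO libraries and WT replicate 2 near them, whereas Isg15 and Irf7 overlap between genotypes and Ifi44 and Ifi44l are higher in every KO library.

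The spread between WT libraries was widest for the GTPases among the 3 sets. Over the 3 WT libraries, the SD of log2(CPM + 0.5) had a median of 1.73 for the GTPases (range 1.09 to 2.85), 1.02 for the third set and 0.55 for the type I genes, against 0.22 over all tested genes. Over the 3 KO libraries the medians were 0.34, 0.18 and 0.19, against 0.18 over all tested genes. The WT SD was above the KO SD for 9 of 9 GTPases, 6 of 6 genes of the third set and 24 of 27 type I genes, and for 61.4% of all tested genes. The type I exceptions were Mx2, Ddx58 and Ifi44l. With WT replicate 2 left out the median WT SD was 0.61 for the GTPases and 0.18 for the type I genes.

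**Figure D4:**
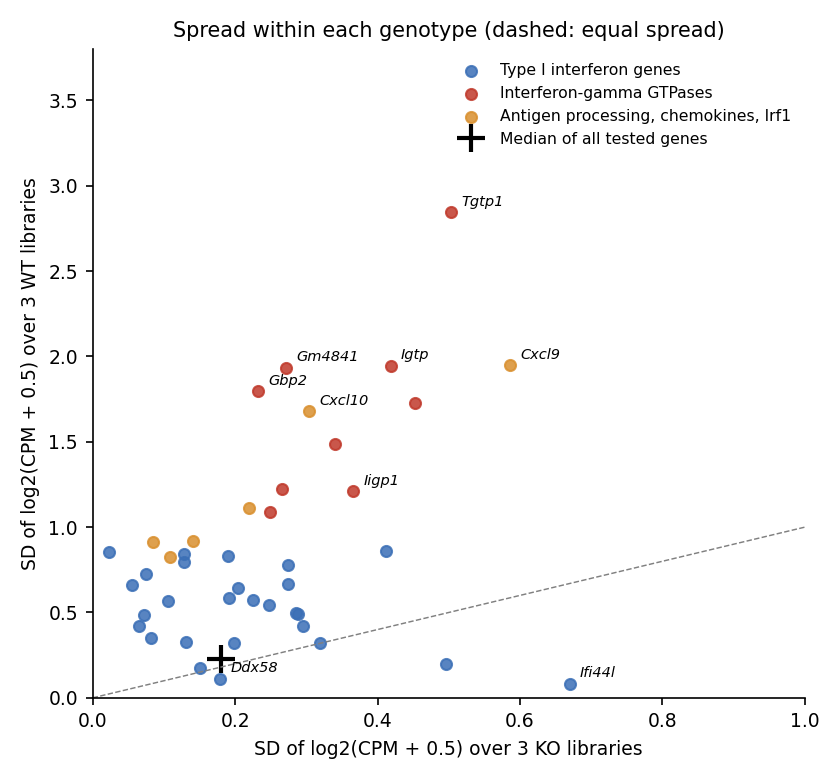
Standard deviation of log2(CPM + 0.5) over the 3 WT libraries against that over the 3 KO libraries, 1 point per gene, with the median of all tested genes as a cross. The GTPases lie at a WT SD of 1.09 or more, and all but 3 type I genes lie above the line of equal spread.

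In the third set, as in the GTPases, WT replicates 1 and 3 lay above every KO library for each gene and WT replicate 2 was the lowest WT library. Cxcl9, a chemokine that draws T cells through the receptor CXCR3, was at 52.9, 25.8 and 26.0 CPM in KO and 391, 31.5 and 266 CPM in WT (log2 -2.72, SE 0.82, edgeR adjusted p = 0.0927). WT replicate 2 lay inside the KO range. Cxcl10, a second CXCR3 ligand, was at 14.5, 9.45 and 10.9 CPM in KO and 65.6, 6.28 and 32.0 CPM in WT (log2 -1.58, SE 0.70, edgeR adjusted p = 0.213). Its WT replicate 2 was the lowest library of all. Psmb9, a subunit of the immunoproteasome that cuts peptides for class I presentation, was at 26.9, 20.5 and 26.8 CPM in KO and 93.9, 20.9 and 64.6 CPM in WT (log2 -1.28, SE 0.48, edgeR adjusted p = 0.151).

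Tap1, a subunit of the transporter that carries those peptides into the endoplasmic reticulum, was at 46.2, 48.0 and 51.9 CPM in KO and 147, 42.7 and 102 CPM in WT. Irf1, the transcription factor that interferon gamma raises directly, was at 49.4, 42.6 and 44.3 CPM in KO and 128, 41.0 and 84.5 CPM in WT. In both genes WT replicate 2 lay just below the KO range, and neither passed (log2 -0.999, SE 0.39, and -0.90, SE 0.36, edgeR adjusted p = 0.167 and 0.179). Psmb8, another immunoproteasome subunit, had a log2 fold change of -0.83 (adjusted p = 0.234). None of the 6 passed in edgeR, where 4 had an unadjusted p below 0.05 (25.8% of all genes did), and none with limma-voom, while DESeq2 called Psmb9 and Cxcl9. Leaving out WT replicate 2 made all 6 pass as lower in KO, with log2 fold changes from -3.24 to -1.19 and edgeR adjusted p values of 0.00452 to 0.0132.

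Among the type I genes only the Ifi44 pair passed in the edgeR fit of all libraries, and the median log2 fold change of the set was -0.02. Isg15, a ubiquitin-like protein joined to other proteins during infection, was at 17.5, 12.4 and 15.9 CPM in KO and 24.5, 12.7 and 25.2 CPM in WT (log2 -0.45, SE 0.27, edgeR adjusted p = 0.347). The groups overlapped through WT replicate 2. Irf7, the transcription factor that amplifies type I interferon production, was at 112.6, 98.0 and 128 CPM in KO and 164, 74.9 and 132 CPM in WT (log2 -0.14, SE 0.27, edgeR adjusted p = 0.793). That sign turned with library size only (0.05) and without WT replicate 1 (0.13). Stat2, which carries the type I signal with IRF9, was at 37.5, 31.2 and 37.4 CPM in KO and 45.2, 40.4 and 35.4 CPM in WT (log2 -0.19, SE 0.13, edgeR adjusted p = 0.420), and was at 0.02 with library size only.

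Oas2, an oligoadenylate synthetase that activates RNase L, was at 4.40, 2.28 and 3.40 CPM in KO and 2.25, 0.349 and 1.34 CPM in WT. Oas1g, a smaller synthetase of the same cluster, was at 3.97, 4.24 and 4.31 CPM in KO and 3.61, 1.16 and 2.51 CPM in WT. In both genes every KO library lay above every WT library, narrowly so for WT replicate 1, and neither passed (log2 1.34, SE 0.58, and 0.78, SE 0.38, edgeR adjusted p = 0.196 and 0.249). Bst2 showed the reverse order, with 213.8, 179 and 204 CPM in KO and 287, 272 and 412 CPM in WT, and did not pass (log2 -0.70, SE 0.19, edgeR adjusted p = 0.0678). Per kilobase of merged exon it was the most abundant of the 42 genes in WT, at 358 CPM per kilobase, followed by Iigp1 at 114 and Igtp at 103. In KO, Bst2 was at 221 CPM per kilobase, Iigp1 at 27.3 and Igtp at 17.1.

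The other 19 type I genes had log2 fold changes between -0.41 and 0.68 and adjusted p values of at least 0.158. They include the translation inhibitors Ifit1, Ifit2, Ifit3 and Ifit3b, the RNA sensors Ddx58, Ifih1 and Dhx58, the antiviral radical enzyme Rsad2 and the ISG15 protease Usp18. Ddx58, which encodes RIG-I, was at 39.3 to 49.1 CPM in KO and 39.8 to 45.8 CPM in WT. WT replicate 2 was the lowest of the WT libraries for 24 of the 27 type I genes and the lowest of all 6 libraries for 20. In the fit without WT replicate 2, Isg15, Rtp4 and Bst2 passed as lower in KO (log2 -0.71, -0.58 and -0.81, edgeR adjusted p = 0.0496, 0.0375 and 0.0488).

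Ifi44 and Ifi44l, which encode related interferon-induced proteins, lie side by side on the minus strand of chromosome 3 (mm10), Ifi44 from 151730922 to 151749960 and Ifi44l from 151758737 to 151762892. Ifi44 was at 15.8, 15.1 and 20.3 CPM in KO and 6.38, 3.66 and 8.60 CPM in WT. All KO libraries lay above all WT libraries, and Ifi44 rose in KO by 1.45 on the log2 scale (SE 0.30, edgeR adjusted p = 0.0341). It was no longer called when KO replicate 1, 2 or 3 or WT replicate 1 was left out (adjusted p between 0.0614 and 0.106). Ifi44l had 776 counts over the KO libraries and 1 over the WT libraries, a ratio of 587 (95% counting interval 105 to 23207). It was at 5.96, 10.3 and 15.8 CPM in KO and at 0.0523, 0 and 0 CPM in WT, and it passed in every fit without 1 library (edgeR adjusted p = 0.00421 with all libraries and at most 0.0324 without 1). With no statement on littermates, the Sesn3 allele and any other genetic difference between the KO and WT mice cannot be told apart, for this gene as for the others.

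The nearest tested genes on either side of the pair did not pass. Adgrl4, 185836 bases from Ifi44, was at 14.3 ± 6.06 CPM in KO and 22.8 ± 2.84 CPM in WT (mean and SD of 3, edgeR adjusted p = 0.233), and Gipc2, 330641 bases from Ifi44l, at 0.900 ± 0.302 and 0.283 ± 0.327 CPM (adjusted p = 0.267).

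The GTPase genes lie in clusters. Gbp2, Gbp3 and Gbp7 lie on chromosome 3 between 142530342 and 142638008, and Gbp6 on chromosome 5. Irgm1, Tgtp1 and Igtp are on chromosome 11, Iigp1 and Gm4841 on chromosome 18. The neighbours of Gm4841 were the Irg family genes Gm4951, 20485 bases away, and F830016B08Rik, 20108 bases away. Gm4951 fell in KO, from 73.5, 72.8 and 76.1 CPM in WT to 20.9, 26.2 and 34.2 CPM (log2 -1.45, SE 0.18, edgeR adjusted p = 0.00733). Its WT replicate 2 stood with the other WT libraries. The call was lost without KO replicate 2 (adjusted p = 0.0570). F830016B08Rik was at 1.86, 1.74 and 2.97 CPM in KO and 4.29, 3.02 and 5.29 CPM in WT and did not pass (adjusted p = 0.126).

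Other genes of the pathway were taken from lists of ligands, receptors, mediators, sensors and targets. No type I or type III interferon gene was detected beyond 1 count: of 20 ligand genes, 20 were at 0 in 5 libraries and 19 in WT replicate 2. A count of 0 allows 3 counts, or up to 0.116 to 0.174 CPM by library. Ifng, the gene of interferon gamma, had 3, 1 and 2 counts in KO and 6, 0 and 11 counts in WT replicates 1 to 3. The library with 0 counts was WT replicate 2, and these counts are too few to compare the genotypes.

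Of 18 tested receptors and JAK-STAT mediators 2 rose and 1 fell, against 3.36% and 3.58% of all tested genes. Ifngr1, the binding chain of the interferon gamma receptor, rose from 44.6, 27.7 and 27.0 CPM in WT to 70.5, 64.0 and 61.2 CPM in KO (log2 0.98, SE 0.20, edgeR adjusted p = 0.0354). Il10rb, a chain shared by the receptors of interleukin 10 and type III interferons, rose from 25.1, 17.4 and 21.7 CPM in WT to 42.3, 39.6 and 37.3 CPM in KO (log2 0.89, SE 0.15, adjusted p = 0.0197). Irf2, a repressor that competes with IRF1, fell from 82.7, 129.9 and 90.3 CPM in WT to 57.2, 62.2 and 58.5 CPM in KO (log2 -0.77, SE 0.18, adjusted p = 0.0469). When any KO replicate or WT replicate 3 was left out, no gene of this list was called, and Irf2 was not called under upper-quartile factors or library size only. In the fit without WT replicate 2, Ifngr1 was not called (adjusted p = 0.0536), 1 gene was higher and 3 were lower.

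Of 22 tested nucleic acid sensors and adaptors none passed in edgeR or limma-voom, 3 had an unadjusted p below 0.05, a share under the 25.8% of all genes, and DESeq2 called 1. The most abundant, Unc93b1, which carries Toll-like receptors to endosomes, was at 102.7 ± 6.66 CPM in KO and 94.0 ± 30.3 CPM in WT (SD, n = 3 each). Of 16 other tested Irg and Gbp genes 14 had negative log2 fold changes, and the median was -1.55. Of the 16, 2 fell and none rose, against 3.58% and 3.36% of all tested genes. They were Gm4951 and Gbp11, at 1.10, 1.08 and 0.862 CPM in KO and 6.44, 1.92 and 5.93 CPM in WT (log2 -2.23, SE 0.47, edgeR adjusted p = 0.0368). Leaving out WT replicate 2 gave 11 lower genes, against 3.6% of all tested genes, and leaving out any other library 0 or 1. Gbp11 was not among them in those 5 fits (adjusted p up to 0.139), nor by limma-voom or with library size only.

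The median log2 fold change of 58 other tested type I targets was -0.25. Of the 58, 3 fell and none rose, against 3.58% and 3.36% of all tested genes. Besides Gm4951, which is in this list too, they were Ifitm3, a membrane protein that blocks virus entry, at 389.99, 332 and 346 CPM in KO and 623, 507 and 664 CPM in WT, and Ube2l6, the E2 enzyme of ISG15, at 90.03, 82.1 and 81.9 CPM in KO and 173, 108 and 158 CPM in WT (edgeR adjusted p = 0.0402 and 0.0460). Neither was called when any library other than WT replicate 2 was left out (adjusted p up to 0.170) or under upper-quartile factors or library size only, and Ube2l6 was not called by limma-voom. In the fit without WT replicate 2, 11 of the list were lower and 1 higher, against 3.6% and 3.07% of all tested genes. Of 24 other tested antigen processing and presentation genes 1 fell, against 3.58% of all tested genes, and 23 of the 24 had negative values. It was Erap1, the peptidase that trims peptides for class I. Erap1 fell from 159, 126 and 149.6 CPM in WT to 92.1, 88.8 and 104.4 CPM in KO (log2 -0.61, SE 0.13, edgeR adjusted p = 0.0402). Erap1 kept its call only when WT replicate 2 was the library left out (adjusted p up to 0.167 otherwise) and lost it under upper-quartile factors or library size only, and 8 of the list were lower without WT replicate 2.

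Psmb8, Psmb9 and Tap1 lie in the major histocompatibility region of chromosome 17, where 2 genes differed strongly between KO libraries. H2-Eb1, a class II chain, was at 4.27, 170.0 and 84.9 CPM in KO replicates 1 to 3 and at 269.8, 56.4 and 138 CPM in WT. H2-T23, a class I-like gene, was at 50.7, 279 and 177.6 CPM in KO and 302, 239 and 254 CPM in WT. Psmb8, Psmb9 and Tap1 did not follow that order in KO. The part of this difference in the results was not tested.

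Markers of immune cells also differed between libraries. The 9 T cell markers in the table summed to 9.17, 7.41 and 8.23 CPM in KO and to 25.4, 8.02 and 10.8 CPM in WT, and the 10 NK cell and cytotoxic markers to 15.3, 6.71 and 12.1 CPM in KO and 39.9, 7.79 and 18.2 CPM in WT. Both were highest in WT replicate 1. No gene of either list passed in edgeR, DESeq2 or limma-voom. At an unadjusted edgeR p below 0.05 the lists had 1 and 0 genes, against 25.8% of all tested genes. The 7 markers of conventional dendritic cells summed to between 8.23 and 12.98 CPM in KO and to 20.7, 7.21 and 13.2 CPM in WT, and the 7 neutrophil markers to between 12.8 and 20.8 CPM in KO and to 33.1, 9.07 and 20.99 CPM in WT. Gene by gene, the dendritic cell list was split into 4 positive and 3 negative log2 fold changes, with a median of 0.39. WT replicate 1 was the highest library for 2 of its 7 genes. The 5 tested neutrophil markers were split into 1 positive and 4 negative, with a median of -0.31.

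The 13 monocyte and macrophage markers did not follow the GTPases in KO, with 1561, 1461 and 1587 CPM in KO and 1520.5, 467 and 829 CPM in WT, though WT replicate 2 was again the lowest. Of these, Trem2 and Cd9 rose in KO (log2 2.62 and 1.02, edgeR adjusted p = 0.0240 and 0.0143). Among all tested genes 3.36% were called higher. The 8 Kupffer cell markers summed to between 1604 and 2072 CPM in KO and between 1159 and 1556.5 CPM in WT. Their log2 fold changes were split into 4 positive and 4 negative, with a median of 0.20. Of these, Clec4f and Vsig4 rose in KO (log2 0.88 and 0.81, edgeR adjusted p = 0.0352 and 0.0463). DESeq2 called 3 of the 8 higher and 2 lower, against 6.43% and 7.24% of the genes it tested. Trem2, Clec4f and Vsig4 lost their calls when any KO replicate or WT replicate 3 was left out, Vsig4 also without WT replicate 2, and Cd9 when KO replicate 1 or 2 was left out. B cell markers summed to between 15.01 and 16.9 CPM in KO and 6.09 to 10.9 CPM in WT. The 7 plasmacytoid dendritic cell markers summed to between 106 and 119 CPM in KO and 19.1 to 30.6 CPM in WT, led in KO by Ly6d. Only 4 of the 7 had enough counts to be tested, 3 with positive and 1 with negative log2 fold changes, and their median was 0.38. Ly6d rose (log2 3.56, edgeR adjusted p = 0.0281). It lost its call when any KO replicate or WT replicate 1 was left out and with no filter on low counts. WT replicate 2, low in the GTPases, was the library highest in hepatocyte markers on the TMM scale. Its TMM factor was the lowest, at 0.856 against 0.9455 to 1.147 in the others, and a lower factor gives higher CPM. Whether it leads without these factors was not tested. No marker of these lists was at 0 in all 6 libraries. The part of these cells in the GTPase levels was not tested, and in bulk liver fewer cells of a type and less RNA per cell cannot be told apart.

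**Figure D5:**
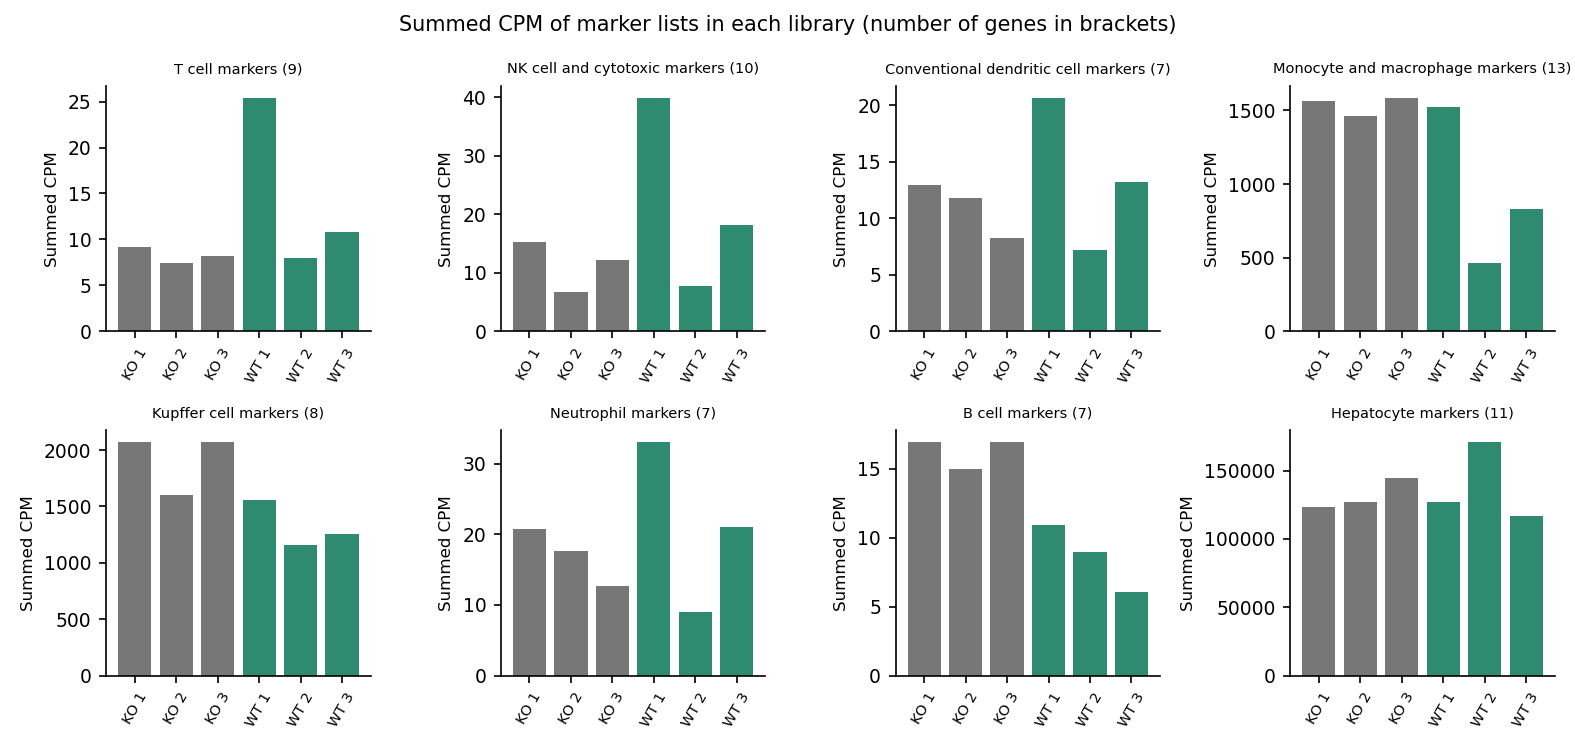
Summed CPM of 8 marker lists in each library, KO in grey and WT in green, with the number of genes in the table beside each list. T cell, NK cell and neutrophil sums are highest in WT replicate 1, and the monocyte and macrophage sum is lowest in WT replicate 2.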

How the data were processed

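Liver RNA of 6 samples, 3 KO and 3 WT, was isolated with Trizol and made into libraries with an Illumina TruSeq kit, per the labels' protocols. The authors deposited raw read counts, 1 integer per symbol and sample. Per the submitters' processing notes the build was mm10 and the tools were featureCounts, Subread 1.5.3, STAR 2.5 and edgeR 3.20.8. The sources used here give no annotation, strand setting or treatment of multimapped reads. Near-identical copies (Ifit3 and Ifit3b, Oas1a and Oas1g, Tgtp1 and Tgtp2, Gbp6 and Gbp10) and overlapping genes (Igtp with Irgm2, Tgtp1 with Gm12185, Psmb9 with Tap1) are uncertain for that reason.

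Genes were kept by filterByExpr (minimum total 15, minimum count 10), scaled by TMM and fitted with robust glmQLFit in edgeR 4.0.16 (R 4.3.3). KO minus WT was tested by glmQLFTest, two-sided and without covariates, and adjusted by Benjamini-Hochberg over 12945 genes at a threshold of 0.05. Standard errors are the log2 fold change over the root of F. Samples were grouped by the genotype label and numbered in accession order, which pairs nothing. The labels do not say that the samples are separate mice, so p-values measure the spread between these samples, and counting intervals cover counting error only. The members, their sets and the other lists were chosen with earlier results of these data known, so sets are described by counts and medians without a test. Values by library are given for called members, the 4 largest fold changes of each set, the widest WT ranges, Irf1, Irf7, Stat2 and Isg15, and from pathway lists for called genes. Bst2, Irgm1, Gbp2, H2-Eb1 and H2-T23 and others named with values were picked after their values were seen. Positions and merged exon lengths come from GENCODE mouse release 21 (GRCm38), with all 42 members matched by symbol. Alternatives were other scaling factors, other filters, DESeq2 1.42.0, limma-voom (limma 3.58.1), no robust dispersion, another pseudocount and leaving out each library. The edgeR and DESeq2 fits were also run on simulated counts with known changes. Genes were simulated independently, with no library that shifts a whole set. The simulation therefore cannot address the results that depend on WT replicate 2.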

Additional observations from a re-analysis of the deposited data

How the results depend on the processing

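The count of members lower in KO (1 of 42) was 0 with no low-count filter, with a filter of 1 CPM in 3 libraries, which leaves Gm4841 untested, and with limma-voom, and 8 with DESeq2. For the GTPases (1 of 9) it was 0, 0, 0 and 5 under these alternatives. DESeq2 called 2 of the antigen processing and chemokine genes and 1 type I gene lower, where edgeR called 0, and 1964 genes in all, against 898. In the other lists DESeq2 called lower 7 type I targets, 7 Irg and Gbp genes and 5 antigen presentation genes, against 3, 2 and 1 in edgeR. Over all genes that each tested, DESeq2 called 7.24% lower and edgeR 3.58%. Leaving out 1 library gave 1 to 2 members higher, 0 to 18 lower, 0 to 9 GTPases lower, 0 to 6 genes of antigen processing and chemokines lower, 0 to 3 type I genes lower and 101 to 962 genes called in all. The highest counts of lower genes in these sets came without WT replicate 2, and the highest count over all genes without WT replicate 1. The members whose genotypes did not overlap numbered 8 to 31, the 31 without WT replicate 2, where 42.7% of all tested genes did not overlap, and the median WT SD ranged from 0.18 to 0.63 for type I genes and from 0.61 to 2.34 for GTPases. Median log2 fold changes without 1 library ran from -2.31 to -1.02 for GTPases, from -1.52 to -0.64 for antigen processing and chemokine genes and from -0.19 to 0.19 for type I genes. Library size only gave 707 genes higher and 258 lower, against 435 and 463, and turned Irf7 to 0.0517 and Stat2 to 0.0242, while without 1 library Irf7 ran from -0.396 to 0.128 (without WT replicate 1). The causes were not tested. No paired analysis was possible because the labels give no replicate numbers that the groups share. Low counts limit Ifng, Ifi44l in WT and Gm4841 in KO.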
